A study of Mus musculus with 6 samples.

Results

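The lysosomal genes described here are 44 members of the lysosome's enzyme set and membrane, listed by name from what the genes are known to do, with earlier results of these data known. They hold 10 proteases, 12 glycosidases (the amidase Aga counted among them) and 5 sulfatases or sulfamidases. The rest are 10 lipid hydrolases with their activators and sterol transfer proteins, and 7 membrane proteins or lysozyme. All 44 were found by symbol among the 55401 genes of the count table, and all 44 passed the low-count filter that left 12972 genes for testing.

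RNA was sequenced from RAW264.7, a virus-transformed mouse macrophage-like cell line, here of wild-type genotype. PBS, the vehicle, was given to 3 samples, and molybdenum disulfide (MoS2), a layered metal sulfide, at 6.25 µg/ml to the other 3. The length of exposure was not given in the sources used here. Since no label ties the replicates to separate cultures, the p-values reflect the spread among these libraries, which may be technical spread only.

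Lysosomes are acidic organelles that break down proteins, glycans, lipids and engulfed material. Their soluble hydrolases are made in the endoplasmic reticulum, tagged with mannose 6-phosphate in the Golgi and carried inward by receptors, while glycosylated membrane proteins line the organelle and shield it from its contents. Macrophages, which engulf particles and dead cells, carry many lysosomes, and the transcription factors TFEB, TFE3 and MITF are known to bind short E-box elements upstream of many lysosomal genes.

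Library totals ran from 15767618 to 18412762 counts, and no pair of replicates agreed within sampling noise. Of 12 macrophage markers 11 were tested, with Mertk near 0, and their summed level ran from 4426 to 4527 CPM (the usual library-scaled read count, here with TMM factors) with PBS and from 3605 to 3850.2 CPM with MoS2. Without Csf1r, which fell, the sum ran from 2477 to 2664 CPM with PBS and from 3076 to 3351 CPM with MoS2, a sum chosen after seeing the data; of the 11 markers 4 were higher, 4 lower and 3 not called. None of 22 markers of other cell types passed the filter, 8 of them were at 0 in all 6 libraries, and their sum did not exceed 1.76 CPM. The 10 most abundant genes took 4.42% ± 0.243 of counts with PBS and 19.0% ± 0.356 with MoS2 (SD, n = 3 each). The choice of scaling moved all fold changes: TMM, which sets library scales so that most genes centre near no change, gave a median log2 fold change of -0.08 over all tested genes, and scaling by library totals alone gave -0.85, a shift of -0.77. Values below are TMM-scaled unless library totals are named.

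The promoter sequences are shown because lysosomal genes are known for a shared element whose core is CACGTG, extended to TCACGTGA. Both motifs read the same on either strand, and every TCACGTGA contains a CACGTG. RefSeq promoter windows (GRCm38.p6, 250 bases before to 50 after the transcription start) were held for 38 of the 44 genes. A gene was counted if any of its windows held the motif. CACGTG occurred in 11 of the 38 genes (28.9%) and in 2187 of all 27025 genes with a window (8.09%). TCACGTGA occurred in 3 of the 38 (7.89%) and in 304 of all 27025 (1.12%). The first 5 lines below are the sites of TCACGTGA, from Ctsa, Ctsd and Gla; the last 3 show CACGTG in Ctsl, Naglu and Sgsh and were added after the expression values were seen, because these genes moved furthest among those with the core. Each line gives 30 bases around the motif, 5′ to 3′ on the gene's strand, with the motif in capitals.
Ctsa, chr2:164833749-164833778, plus strand: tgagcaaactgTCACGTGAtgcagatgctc
Ctsa, chr2:164833766-164833795, plus strand: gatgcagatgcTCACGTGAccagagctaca
Ctsd, chr7:142387908-142387937, minus strand: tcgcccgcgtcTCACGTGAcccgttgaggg
Gla, chrX:134601215-134601244, minus strand: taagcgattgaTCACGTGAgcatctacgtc
Gla, chrX:134601182-134601211, minus strand: tgagatctcggTCACGTGAgcaactctcgg
Ctsl, chr13:64370739-64370768, minus strand: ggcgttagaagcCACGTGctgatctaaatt
Naglu, chr11:101070009-101070038, plus strand: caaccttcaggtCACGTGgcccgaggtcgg
Sgsh, chr11:119355522-119355551, minus strand: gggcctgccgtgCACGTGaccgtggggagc

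MoS2-treated cells differed from PBS-treated cells in 40 of the 44 lysosomal genes, and the differences ran in both directions. The test was edgeR's quasi-likelihood F test, with Benjamini-Hochberg adjustment over all 12972 tested genes and a threshold of 0.05. With it 22 members were higher (50%) and 18 lower (40.9%), and Manba, Galc, Gm2a and Npc1 were not called. Among all tested genes 80.7% were called, 38.3% higher and 42.4% lower, so most genes of any kind differed between the groups. A log2 fold change of 1 or more was reached by 10 members upward (22.7%, against 19.5% of all tested genes) and by 6 downward (13.6%, against 23.7%). The libraries of the groups did not overlap in 42 members, against 81.9% of all tested genes. The members' median log2 fold change was 0.11, and they ranged from -4.20 for Sgsh to 1.92 for Ctsl. In bulk RNA, fewer cells of a type and less RNA per cell cannot be told apart.

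Scaled by library totals alone, 11 members were higher and 30 lower, with a median of -0.66, while 18.0% of all tested genes were higher and 67.7% lower. The 11 that were higher under both scalings were Ctsb, Ctsc, Ctsd, Ctsl, Ctsz, Neu1, Aga, Galns, Npc2, Cd63 and Cd68. All 18 members that were lower under TMM were lower under library totals too, which the downward shift of that scaling nearly fixed in advance. Ctss, Tpp1, Hexa, Glb1, Gusb, Gaa, Fuca1 and Ppt1 were higher under TMM and lower under library totals, and Ctsa, Gla and Lamp2 were higher under TMM and not called under library totals. Every member lay on the same side of the all-gene median under library totals as of 0 under TMM. The scalings differ by a nearly constant shift (median -0.77), so this was nearly fixed in advance and adds no support.

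**Figure D1:**
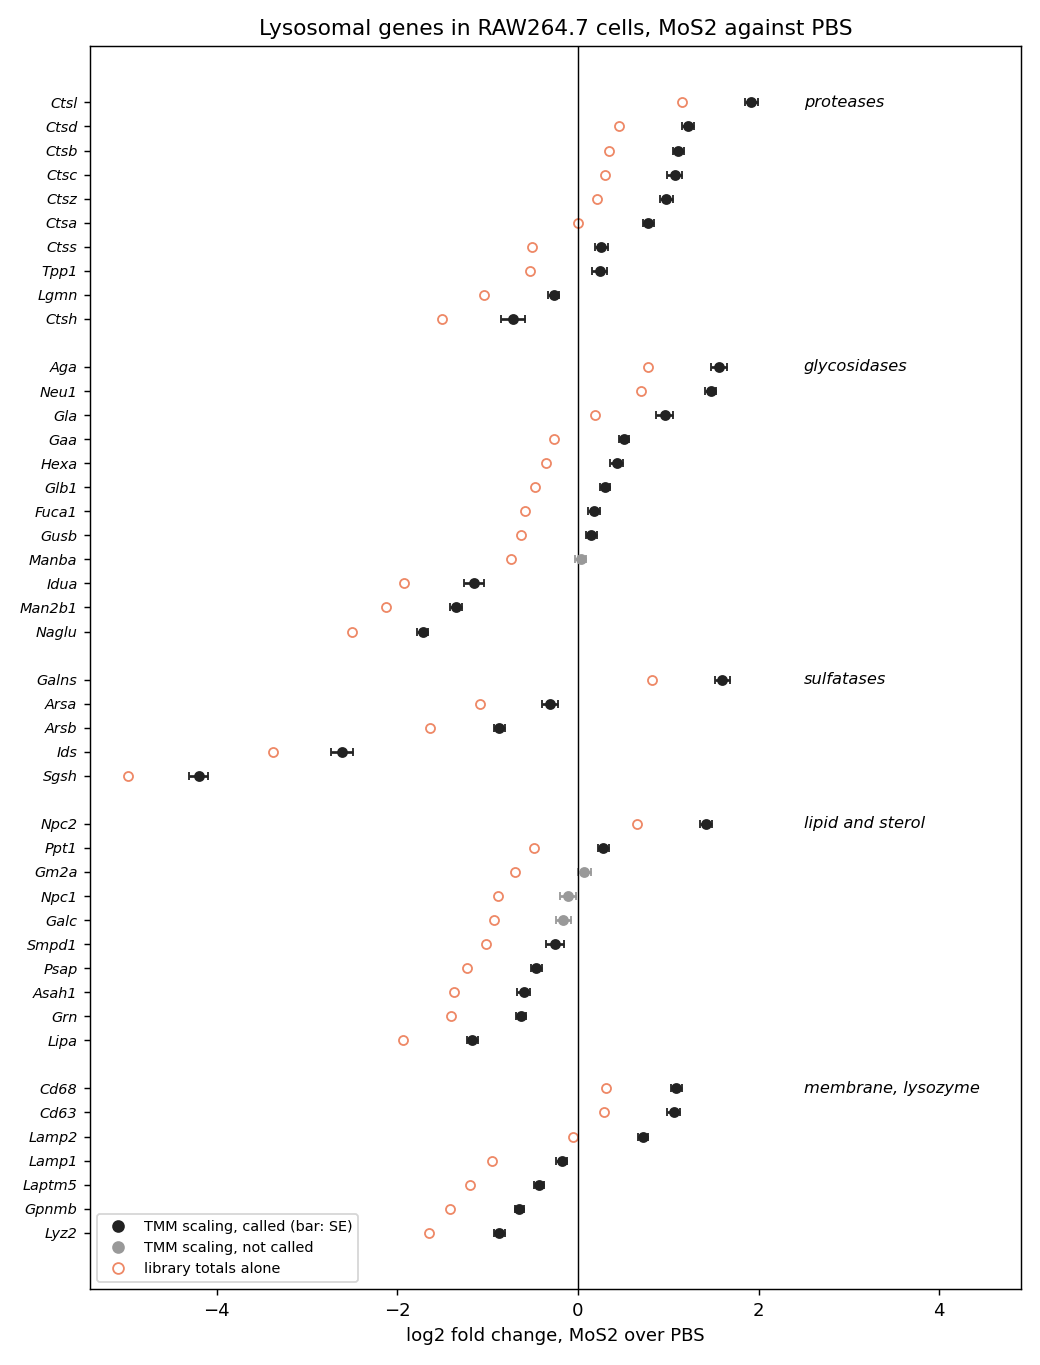
Log2 fold change of each of the 44 lysosomal genes, MoS2 over PBS, by role class; filled points are TMM-scaled values with their SE and open points the values with library totals alone. Under TMM, members lie on both sides of 0 in all 5 classes, from Sgsh at -4.20 to Ctsl at 1.92, and every open point lies to the left of its filled point.

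Proteases were mostly higher. Of the 10, 8 rose (80%, against 38.3% of all tested genes) and 2 fell (20%, against 42.4%) under TMM. Their median log2 fold change was 0.88. Under library totals 5 were higher (50%, against 18.0%) and 4 lower (40%, against 67.7%). Cathepsin L (Ctsl, ENSMUSG00000021477.9, chr13:64359337-64370890), a cysteine endopeptidase, stood at 332, 343 and 350.3 CPM with PBS and at 1222, 1259 and 1405 CPM with MoS2. All its treated libraries lay far above all its control libraries. It rose 3.79-fold (log2 fold change 1.92, SE 0.07; edgeR adjusted p = 1.5e-11), and by a log2 fold change of 1.15 under library totals.

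Cathepsin D (Ctsd, ENSMUSG00000007891.16, chr7:142375911-142388038), the main aspartic protease of the lysosome, measured 1229, 1037 and 1042 CPM with PBS and 2543, 2479.7 and 2683 CPM with MoS2. Even its highest control library lay well below the treated ones, and it rose 2.33-fold (log2 fold change 1.22, SE 0.07; edgeR adjusted p = 2.3e-09). Cathepsin B (Ctsb), a cysteine protease that also trims peptides from the carboxyl end, stood at 4165, 4063 and 3959 CPM with PBS and at 8734, 8574 and 9087 CPM with MoS2. Again the groups did not overlap, and the rise was 2.17-fold (log2 fold change 1.11, SE 0.06; edgeR adjusted p = 4.3e-10). Cathepsin C (Ctsc), the dipeptidyl peptidase that activates granule serine proteases, measured 37.2, 44.1 and 46.1 CPM with PBS and 91.5, 90.3 and 85.3 CPM with MoS2. Its groups stood apart as well, and the log2 change was 1.07 (SE 0.08; edgeR adjusted p = 4e-08).

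Cathepsin Z (Ctsz), a carboxypeptidase, measured 901, 835 and 819 CPM with PBS and 1686, 1582 and 1782 CPM with MoS2, in groups that did not overlap. Its log2 fold change was 0.98 (SE 0.07; edgeR adjusted p = 6.6e-09), and 0.39 once each library's trend on gene length was removed. Cathepsin A (Ctsa), the carboxypeptidase that protects β-galactosidase and neuraminidase in a complex, rose by 0.78 on the log2 scale (SE 0.06; edgeR adjusted p = 3.4e-08), and was at 0.00 under library totals. Cathepsin S (Ctss), which processes the invariant chain of MHC class II, had a log2 fold change of 0.26 under TMM, with library values of 501, 454 and 433 against 533, 536 and 593 CPM. Its direction turned with the scaling, to -0.51 under library totals and -0.37 with the length trend removed, and with upper-quartile factors it was not called (0.13). Tripeptidyl peptidase 1 (Tpp1) had 0.24 under TMM and -0.53 under library totals, and was not called with upper-quartile factors (0.11).

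Legumain (Lgmn), the asparaginyl endopeptidase that processes other lysosomal proteases, went the other way. It measured 663, 632 and 652 CPM with PBS and 526, 529.6 and 561 CPM with MoS2, and fell by 0.27 on the log2 scale (SE 0.06; edgeR adjusted p = 0.00079). Cathepsin H (Ctsh), an aminopeptidase, was among the rarest members at 13.3 ± 1.34 CPM with PBS and 8.07 ± 0.637 CPM with MoS2 (SD, n = 3 each). It fell by 0.72 on the log2 scale (SE 0.13; edgeR adjusted p = 0.0002).

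The glycosidases divided. Of the 12, 8 rose (66.7%, against 38.3% of all tested genes), 3 fell (25%, against 42.4%) and Manba was not called. Their median log2 fold change was 0.24. Under library totals 2 were higher (16.7%, against 18.0%) and 9 lower (75%, against 67.7%). The largest rises of the class were in Aga, an amidase counted here, and in Neu1. Both act on the glycans of glycoproteins. Aspartylglucosaminidase (Aga, ENSMUSG00000031521.5, chr8:53511727-53523421), which cuts the bond between asparagine and its glycan, stood at 16.2, 16.5 and 16.9 CPM with PBS and at 46.1, 46.4 and 53.3 CPM with MoS2. The control libraries were nearly equal, and the lowest treated library was far above them. Aga rose 2.94-fold (log2 fold change 1.56, SE 0.09; edgeR adjusted p = 1.3e-09).

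Neuraminidase 1 (Neu1, ENSMUSG00000007038.5, chr17:34931253-34935953), which removes terminal sialic acid, measured 115, 107 and 111 CPM with PBS and 314, 299 and 312 CPM with MoS2. Its libraries were tight within each group and did not overlap, and it rose 2.77-fold (log2 fold change 1.47, SE 0.06; edgeR adjusted p = 7e-11). α-Galactosidase A (Gla), which removes galactose from globotriaosylceramide, rose by 0.96 on the log2 scale (SE 0.09; edgeR adjusted p = 1.4e-07), and was at 0.19 and not called under library totals. Both Gla and Ctsd hold the extended motif printed above.

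Naglu, Man2b1 and Idua fell. α-N-acetylglucosaminidase (Naglu, ENSMUSG00000001751.9, chr11:101070012-101077672), which removes N-acetylglucosamine from heparan sulfate, stood at 171, 168 and 160.3 CPM with PBS and at 51.2, 50.7 and 49.3 CPM with MoS2. The groups were far apart, and the level was 3.31-fold lower (log2 fold change -1.72, SE 0.06; edgeR adjusted p = 2.6e-11). Lysosomal α-mannosidase (Man2b1, ENSMUSG00000005142.10, chr8:85083270-85098282), which trims mannose from glycoproteins, measured 159, 167 and 174 CPM with PBS and 67.5, 65.1 and 63.8 CPM with MoS2. No treated library reached a control one, and it was 2.55-fold lower (log2 fold change -1.35, SE 0.07; edgeR adjusted p = 2.8e-10; -0.90 with length and GC trends removed).

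α-L-Iduronidase (Idua, ENSMUSG00000033540.18, chr5:108660331-108684557), which cuts iduronic acid from heparan and dermatan sulfate, measured 32.6, 33.3 and 42 CPM with PBS and 15.5, 17.4 and 15.8 CPM with MoS2. PBS replicate 3 was higher than the other controls, and all 3 lay above the treated ones. The log2 fold change was -1.15 (SE 0.11; edgeR adjusted p = 4.5e-07).

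The other glycosidases moved little, and the sign of each turned between the scalings. Acid α-glucosidase (Gaa), which degrades glycogen, had a log2 fold change of 0.51 under TMM, 1.0 with length and GC trends removed and -0.26 under library totals. β-Hexosaminidase A (Hexa), which breaks down GM2 ganglioside, had 0.43, 0.18 and -0.35 in the same order, and lost its call with the length trend alone removed (0.06, edgeR adjusted p = 0.299). β-Galactosidase (Glb1) had 0.30 under TMM and -0.47 under library totals. Both carried their TMM call with SEs of 0.07 and 0.06.

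α-Fucosidase (Fuca1) was called at a log2 change of 0.18 (edgeR adjusted p = 0.0218) and β-glucuronidase (Gusb) at 0.15 (edgeR adjusted p = 0.0319), both at the edge of the test and both lower under library totals (-0.59 and -0.63). The Fuca1 call was lost without PBS replicate 2 or 3 or MoS2 replicate 1 or 3 (edgeR adjusted p = 0.0817, 0.119, 0.0794 and 0.0601; 2e-06 to 0.712 over all alternatives). That of Gusb was lost without PBS replicate 2 or 3 or MoS2 replicate 2 or 3 (edgeR adjusted p = 0.0819, 0.0848, 0.0722 and 0.0952; 1.6e-07 to 0.896 over all alternatives), and with the replicate number as a block (0.104). β-Mannosidase (Manba) measured 85.8, 86.5 and 89.2 CPM with PBS and 91.2, 89.2 and 86.1 CPM with MoS2, and its groups overlapped. Its log2 fold change was 0.03 with a 95% interval from -0.10 to 0.15 (edgeR adjusted p = 0.697), and it was called lower under library totals (-0.74) and higher with length and GC trends removed (0.16).

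Sulfatases and sulfamidase held the most extreme values of all 44 genes. Galns rose and the other 4 fell (80%, against 42.4% of all tested genes), with a class median of -0.87. The split was the same under library totals, where 67.7% of all tested genes were lower. For the 4 falls the downward shift of that scaling nearly fixed this in advance. N-Sulfoglucosamine sulfohydrolase (Sgsh, ENSMUSG00000005043.13, chr11:119343425-119355536), the sulfamidase of heparan sulfate breakdown, stood at 58.1, 62.3 and 63.9 CPM with PBS and at 3.59, 3.57 and 2.85 CPM with MoS2. Its treated libraries fell to the bottom of the set, and the level was 18.4-fold lower (log2 fold change -4.20, SE 0.11; edgeR adjusted p = 1.2e-12). Sgsh shares 955 exon bases with Card14 on the opposite strand. Over all libraries Sgsh had 4325 counts and Card14 1738, and the strand setting of the counting was not given in the sources used here.

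Iduronate 2-sulfatase (Ids, ENSMUSG00000035847.15, chrX:70343069-70365084), which acts on heparan and dermatan sulfate, measured 33.6, 34 and 37 CPM with PBS and 6.15, 6.32 and 4.75 CPM with MoS2. All treated libraries were below all control libraries by a wide margin. The level was 6.09-fold lower (log2 fold change -2.61, SE 0.12; edgeR adjusted p = 1.8e-10). Arylsulfatase B (Arsb), which acts on dermatan and chondroitin sulfate, fell from 123 ± 3.28 to 67.4 ± 1.21 CPM (SD, n = 3 each; log2 fold change -0.87, SE 0.06; edgeR adjusted p = 1.5e-08). Arylsulfatase A (Arsa), which acts on sulfatide, fell by 0.31 on the log2 scale (SE 0.09; edgeR adjusted p = 0.0066); with length and GC trends removed it was at -0.09 and no longer called.

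Galactosamine-6-sulfatase (Galns, ENSMUSG00000015027.11, chr8:122578242-122611463), which acts on keratan and chondroitin sulfate, measured 24.3, 25 and 27.9 CPM with PBS and 78.6, 76.4 and 78.3 CPM with MoS2. The treated libraries were close together and well above the controls. Galns rose 3.02-fold (log2 fold change 1.6, SE 0.08; edgeR adjusted p = 2.7e-10), and had 0.82 under library totals.

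**Figure D2:**
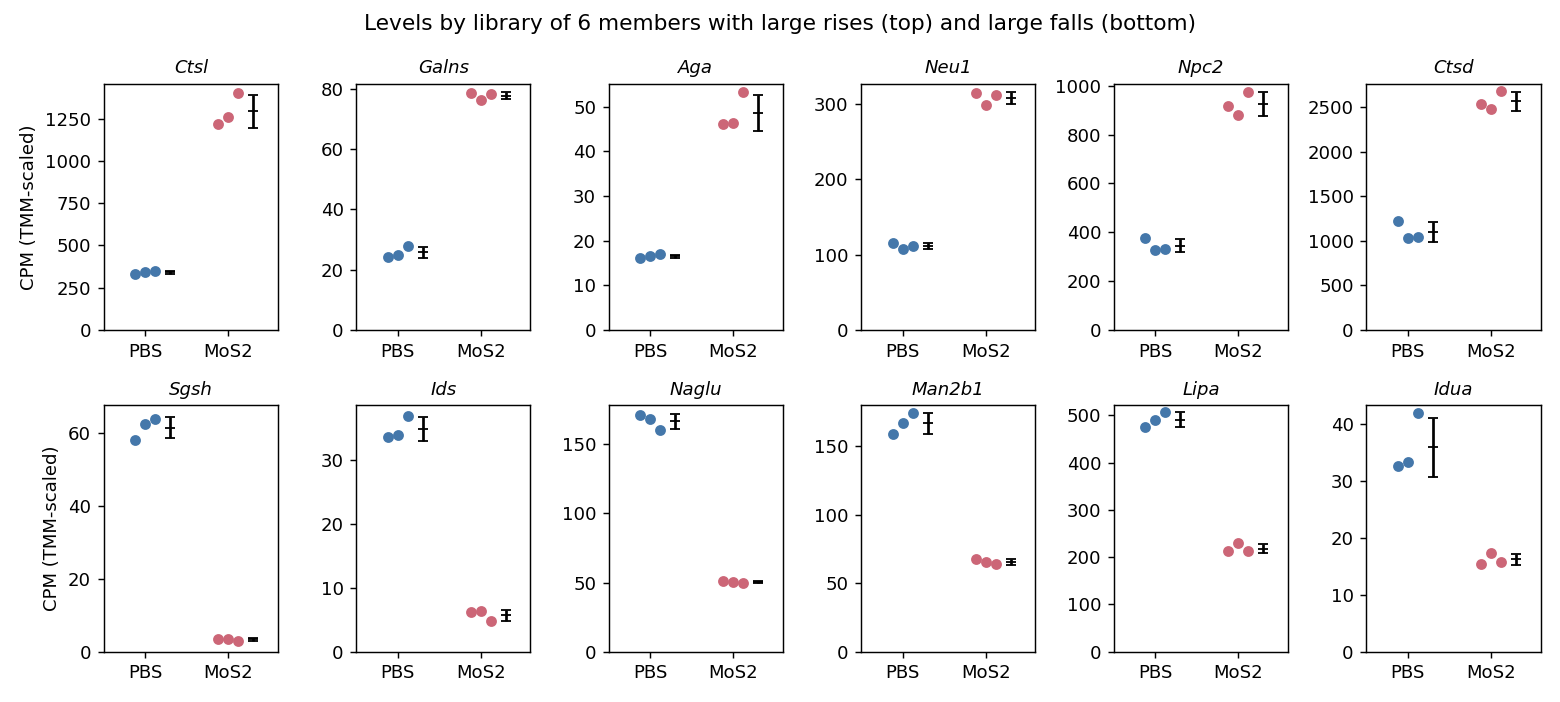
TMM-scaled CPM in each of the 6 libraries (points) with mean and SD (bars), for the 6 members with the largest rises in the upper row and the 6 with the largest falls in the lower row; each panel has its own axis from 0. The groups do not overlap in any of the 12 panels, and Sgsh goes from 58.1 or more to 3.59 or less.

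Among the 10 lipid hydrolases, activators and sterol transfer proteins, 2 rose, 5 fell and 3 were not called, with a median log2 fold change of -0.20. That was 20% higher and 50% lower, against 38.3% and 42.4% of all tested genes. Under library totals 1 was higher (10%, against 18.0%) and 9 lower (90%, against 67.7%). NPC intracellular cholesterol transporter 2 (Npc2, ENSMUSG00000021242.9, chr12:84754562-84773152), the soluble protein that hands cholesterol to NPC1, measured 376, 328 and 332 CPM with PBS and 918, 882 and 976 CPM with MoS2. Its groups were far apart, with a 2.68-fold rise (log2 fold change 1.42, SE 0.07; edgeR adjusted p = 3.3e-10).

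Lysosomal acid lipase (Lipa, ENSMUSG00000024781.16, chr19:34492318-34527474), which frees cholesterol from its esters, measured 475, 490.2 and 506 CPM with PBS and 212, 229 and 213 CPM with MoS2. It was 2.25-fold lower with no overlap between groups (log2 fold change -1.17, SE 0.06; edgeR adjusted p = 6.3e-10). Npc1, the membrane protein that exports cholesterol, measured 90.4, 99.8 and 110.5 CPM with PBS and 94.4, 103 and 82.4 CPM with MoS2. Its groups overlapped, and its log2 fold change of -0.11 had a 95% interval from -0.28 to 0.07 (edgeR adjusted p = 0.284). It was called lower under library totals (-0.88), with upper-quartile factors (-0.24) and without the low-count filter (-0.19).

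Granulin and prosaposin, precursors that are cut into smaller proteins in the lysosome, both fell. Progranulin (Grn) measured 2288, 2018 and 2009 CPM with PBS and 1326, 1364 and 1383 CPM with MoS2, a log2 change of -0.63 (SE 0.06; edgeR adjusted p = 6.1e-07). Prosaposin (Psap), the source of the saposins that help enzymes act on sphingolipids, measured 1661, 1561 and 1549 CPM with PBS and 1162, 1129.7 and 1188 CPM with MoS2, a log2 change of -0.46 (SE 0.06; edgeR adjusted p = 6e-06). Neither gene's groups overlapped.

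Acid ceramidase (Asah1) fell by 0.60 on the log2 scale (SE 0.07; edgeR adjusted p = 2.5e-06). Acid sphingomyelinase (Smpd1) fell by 0.25 (SE 0.10; edgeR adjusted p = 0.0345). The Smpd1 call was lost without PBS replicate 2 or 3 or MoS2 replicate 1 or 2 (edgeR adjusted p = 0.0654, 0.0807, 0.111 and 0.124; 2.6e-07 to 0.359 over all alternatives), and with RLE factors (0.0686) and with length and GC trends removed (0.321); DESeq2 did not call it (adjusted p = 0.117). Palmitoyl-protein thioesterase 1 (Ppt1), which removes fatty acids from proteins, had a log2 change of 0.28 under TMM (edgeR adjusted p = 0.00043) and of -0.49 under library totals. It shares 129 exon bases with Cap1 on the opposite strand, which had 93824 counts against 45595 for Ppt1.

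Galactosylceramidase (Galc) and the GM2 activator (Gm2a) were not called. Galc measured 44.9, 46.4 and 45.7 CPM with PBS and 42.1, 43.2 and 37.5 CPM with MoS2 (log2 fold change -0.16, 95% interval -0.31 to -0.01; edgeR adjusted p = 0.0752). Gm2a measured 62.8, 65 and 64.7 CPM with PBS and 69.3, 67.8 and 65.5 CPM with MoS2 (log2 fold change 0.07, 95% interval -0.06 to 0.20; edgeR adjusted p = 0.313). In both genes the groups did not overlap although the test did not call them. Under library totals both were called lower, at -0.93 and -0.70, and Galc was also called lower with upper-quartile factors (-0.29) and without the low-count filter (-0.24).

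Membrane proteins and lysozyme divided as well: Cd68, Cd63 and Lamp2 rose and the other 4 fell, with a median of -0.18. That was 42.9% higher and 57.1% lower, against 38.3% and 42.4% of all tested genes. Under library totals 2 were higher (28.6%, against 18.0%) and 4 lower (57.1%, against 67.7%). CD68, a heavily glycosylated macrophage sialomucin, measured 566, 622 and 652 CPM with PBS and 1286, 1293 and 1333 CPM with MoS2. It rose with no overlap between groups (log2 fold change 1.09, SE 0.06; edgeR adjusted p = 2.1e-09), and had 0.40 with the length trend removed. The tetraspanin CD63 measured 388, 329 and 354 CPM with PBS and 739, 715 and 784 CPM with MoS2, again without overlap (log2 fold change 1.06, SE 0.07; edgeR adjusted p = 6.6e-09).

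The related membrane glycoproteins LAMP1 and LAMP2 differed in direction under TMM. Lamp2 stood at 350.3, 305 and 328 CPM with PBS and at 536, 537 and 551 CPM with MoS2 (log2 fold change 0.72, SE 0.06; edgeR adjusted p = 1.4e-07; -0.05 under library totals). Lamp1 stood at 1282, 1195 and 1237 CPM with PBS and at 1077, 1092 and 1114 CPM with MoS2 (log2 fold change -0.18, SE 0.06; edgeR adjusted p = 0.011). The Lamp1 call, though not its size, was lost without MoS2 replicate 1 (log2 fold change -0.16, edgeR adjusted p = 0.065) and with the replicate number as a block (-0.18, edgeR adjusted p = 0.051; 1.4e-09 to 0.805 over all alternatives).

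Lysozyme 2 (Lyz2), which cuts bacterial cell walls, measured 3788, 3544 and 3539 CPM with PBS and 1964, 1917 and 2049 CPM with MoS2. The treated libraries were all well below the controls (log2 fold change -0.87, SE 0.06; edgeR adjusted p = 7.5e-09; -1.53 with the length trend removed). Lyz2 has a near-identical copy, Lyz1, and how reads shared between the copies were counted was not given in the sources used here. Gpnmb, a transmembrane glycoprotein of phagocytes, fell from 3788 ± 48.1 to 2419.6 ± 35.9 CPM (SD, n = 3 each; log2 fold change -0.65, SE 0.05; edgeR adjusted p = 7.8e-08). Laptm5, which sends immune receptors to the lysosome, fell by 0.43 (SE 0.06; edgeR adjusted p = 1.1e-05).

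Gene length moved with the fold changes across the whole table: Spearman's rho over all tested genes was -0.231, a description across genes that share their libraries. The median log2 fold change was 1.31 in the 944 genes under 1000 bases and -0.35 in the 2023 genes of 8000 bases or more. The members ran from 1257 to 14879 bases, and 5 were under 2000 (Lyz2, Cd68, Ctss, Ctsz and Hexa). With each library's length trend removed 19 members were higher and 19 lower (43.2% each, against 35% and 45.1% of all tested genes). With length and GC trends removed, an alternative chosen after seeing the data, 22 were higher (50%, against 38.3%) and 17 lower (38.6%, against 42%). What part length has in any one gene's difference was not tested.

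Levels of different genes can be compared only per length, here as RPKM (TMM-scaled CPM per 1000 bases of the deposited gene length). Lyz2 was the most abundant member with PBS, at 2754 RPKM, with Ctsb next at 671 RPKM. With MoS2 Lyz2 stood at 1502 ± 50.9 RPKM and Ctsb at 1454 ± 43.3 RPKM (SD, n = 3 each), a difference that was not tested. Behind them the order changed: Grn went from rank 3 to rank 10 of 44, Gpnmb from 5 to 11, Ctsd from 8 to 4 and Cd68 from 7 to 5. Ctsz held 591 and 1168 RPKM, Ctsd 469 and 1092, Cd68 488 and 1037, and Psap 579.6 and 423. Neighbours in this order were close: with PBS, Ctsz, Gpnmb and Psap lay between 579.6 and 591 RPKM. At the bottom, Sgsh went from rank 33 at 13.9 RPKM to rank 44 at 0.756 RPKM.

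**Figure D3:**
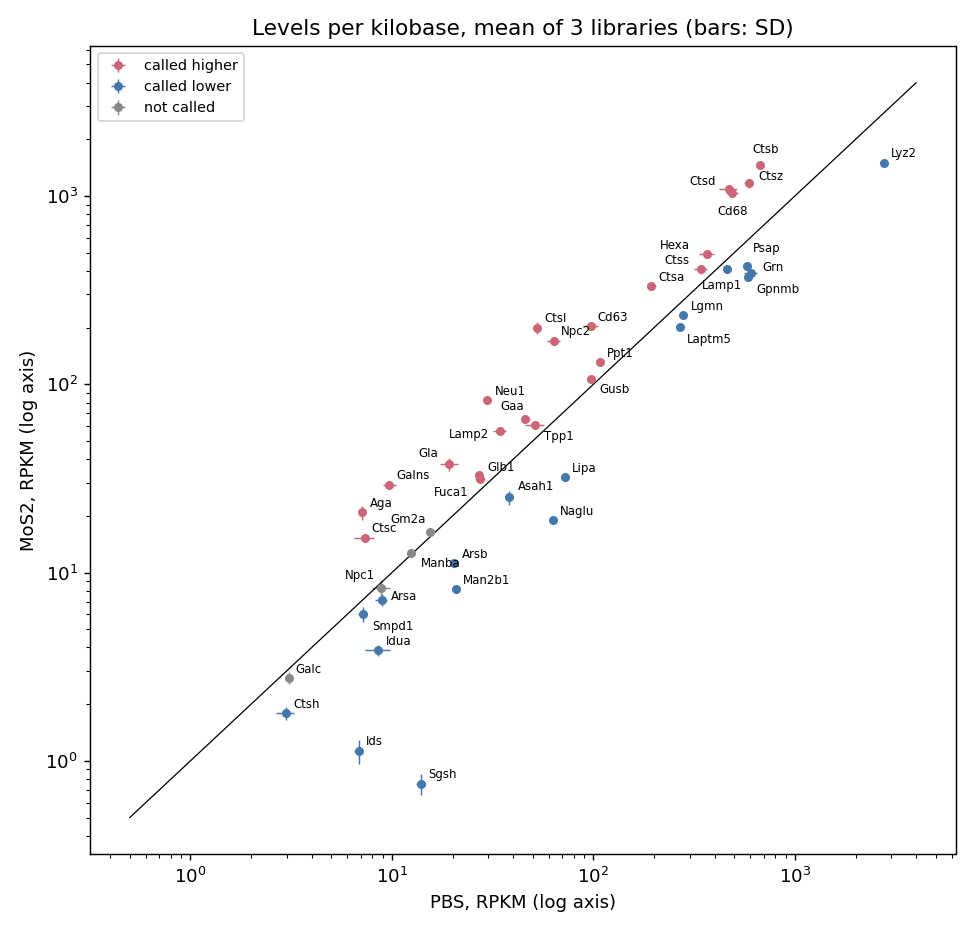
RPKM of the 44 lysosomal genes with MoS2 (vertical axis) against PBS (horizontal axis), both log axes, as means of 3 libraries with SD bars; the line marks equal levels and colours the edgeR call. Levels span from Lyz2 at 2754 RPKM with PBS down to Sgsh at 0.756 RPKM with MoS2, the point farthest below the line.

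As a share of all counts, the 44 genes took 3.68%, 3.52% and 3.55% of the PBS libraries and 2.55%, 2.58% and 2.56% of the MoS2 libraries. Such a share is a level scaled by library totals. With that scaling the median log2 fold change of all tested genes was -0.85, and 67.7% of them were called lower. All treated libraries were below all control libraries; the exact two-sided permutation test gave p = 0.1, the smallest that 3 against 3 libraries allow. Only the protease class took a larger share with MoS2, 1.33% ± 0.0126 against 1.14% ± 0.0367 (SD, n = 3 each). Its genes did not move alike: under library totals 5 of the 10 were called higher and 4 lower. Ctsl had a log2 fold change of 1.15 there, and Ctsb, the most abundant of the class, 0.34. Lipid genes went from 0.69% ± 0.0286 to 0.34% ± 0.00517 and membrane proteins with lysozyme from 1.43% ± 0.0218 to 0.676% ± 0.0117. Glycosidases went from 0.288% to 0.205% and sulfatases from 0.0363% to 0.0138%. Each class gave the same exact permutation p of 0.1. Ctsb alone held 0.53% and 0.672%, and without it the other 43 genes took 3.05% and 1.89%. Ctsb is itself among the 10 most abundant genes; with those 10 left out of both the members and the total, the remaining 43 members took 3.19% and 2.34%.

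**Figure D4:**
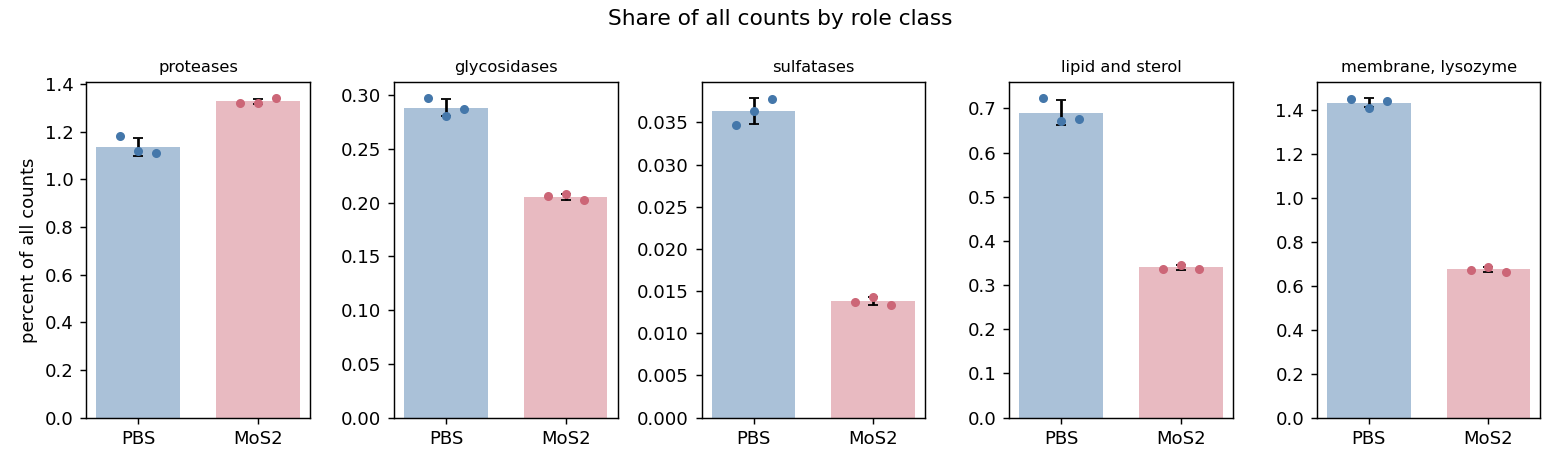
Percent of all counts taken by each role class in each library (points), with mean (bars) and SD (error bars), each panel on its own axis from 0. Proteases are the one class with a higher share with MoS2, 1.33% against 1.14%, though 4 of the 10 were called lower under library totals. The lipid and membrane classes drop to 0.34% and 0.676%.

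Ratios of counts between 2 members within a library do not depend on the scaling. The pairs below were chosen after the values were seen and are given as a description. The Galns to Sgsh ratio went from 0.418 ± 0.0172 to 23.6 ± 3.35 (SD, n = 3 each). Neu1 to Naglu went from 0.668 to 6.12, and Npc2 to Lipa from 0.706 to 4.25. Ctsl to Lgmn went from 0.527 to 2.4 and Cd68 to Lyz2 from 0.17 to 0.66. Lamp2 to Lamp1 went from 0.264 to 0.495. In each of these 6 ratios the groups did not overlap.

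Set against the promoter motifs printed above, the 11 members with CACGTG comprised 6 that rose and 5 that fell, and the 27 with a window but no CACGTG comprised 13 that rose, 11 that fell and 3 not called. The core was in the windows of both the largest rise (Ctsl) and the largest fall (Sgsh). The 3 genes with TCACGTGA all rose under TMM; Ctsd was higher under library totals too, and Ctsa and Gla were not called there. Lamp1 held 4 copies of CACGTG, at 61, 45, 28 and 15 bases before its start. These are matches of letters only, and the windows of 6 members were not analysed here.

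Of the factors known to bind this element, Tfeb and Mitf fell and Tfe3 was not called. Tfeb measured 32.3, 29.7 and 29.3 CPM with PBS and 12.5, 11.6 and 10.6 CPM with MoS2, without overlap, and fell (log2 fold change -1.40, SE 0.10; edgeR adjusted p = 2e-08; -0.68 with length and GC trends removed). Mitf fell too, with 50, 56.2 and 64 CPM against 31.6, 20.8 and 25.8 CPM (log2 fold change -1.12, SE 0.13; edgeR adjusted p = 2.2e-06). Tfe3 had a log2 fold change of -0.08 under TMM (edgeR adjusted p = 0.323). It was called lower under library totals (-0.86), with upper-quartile factors (-0.21) and without PBS replicate 1 (-0.16, edgeR adjusted p = 0.0406), and called higher, at 0.30, with length and GC trends removed.

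Tfec, a further member of the family near the detection limit at 0.805 ± 0.307 and 1.6 ± 0.274 CPM, was called higher (log2 fold change 0.99, SE 0.37; edgeR adjusted p = 0.0255). That call was lost without PBS replicate 1 or 3 or MoS2 replicate 1 or 3 (edgeR adjusted p = 0.094, 0.0522, 0.0715 and 0.0922; 0.0168 to 0.587 over all alternatives). The 8 tested genes of these factors and their control, which include the folliculin partners Fnip1 (log2 fold change 0.70, and -0.07 under library totals) and Fnip2 (-0.91), gave 2 higher, 5 lower and 1 not called. That was 25% higher and 62.5% lower, against 38.3% and 42.4% of all tested genes. Under library totals none was higher (against 18.0% of all tested genes) and 6 were lower (75%, against 67.7%).

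Other lysosomal genes, from lists that do not overlap the 44, also moved both ways, as did all tested genes. Of 28 other hydrolases 11 were higher (39.3%, against 38.3% of all tested genes), 13 lower (46.4%, against 42.4%) and 4 not called. Their median was 0.02. Under library totals 4 were higher (14.3%, against 18.0%) and 23 lower (82.1%, against 67.7%), and 7 were higher with upper-quartile factors. The serine carboxypeptidase Scpep1 rose by 1.22 on the log2 scale (SE 0.06). Phospholipase D family member 3 (Pld3), a lysosomal nuclease, rose by 1.80 (SE 0.06), while cathepsin F (Ctsf) fell by 1.84 (SE 0.08).

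Of 31 other membrane proteins tested, 9 were higher (29%, against 38.3% of all tested genes), 16 lower (51.6%, against 42.4%) and 6 not called. Their median was -0.27. Under library totals 2 were higher (6.45%, against 18.0%) and 28 lower (90.3%, against 67.7%). The peptide and histidine transporter Slc15a3 stood at 51.6, 44.5 and 44.1 CPM with PBS and at 549, 552 and 563 CPM with MoS2, a rise of 3.57 on the log2 scale (SE 0.08; edgeR adjusted p = 1.2e-13). The lysosomal cation channel Tpcn1 fell by 1.86 (SE 0.08), Ostm1, the partner of a chloride transporter, by 1.87 (SE 0.10), and the polyamine exporter Atp13a2 by 1.54 (SE 0.06; -0.82 with length and GC trends removed).

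Of 24 genes that tag and sort lysosomal enzymes, 12 were higher (50%, against 38.3% of all tested genes), 8 lower (33.3%, against 42.4%) and 4 not called. Their median was 0.15. Under library totals 3 were higher (12.5%, against 18.0%) and 19 lower (79.2%, against 67.7%). The cation-dependent mannose 6-phosphate receptor (M6pr) rose by 1.27 on the log2 scale (SE 0.06), the adaptor subunit Ap1s1 by 1.18 (SE 0.07) and the retromer subunit Vps29 by 0.84 (SE 0.07; 0.06 under library totals). The tethering subunit Vps18 fell by 1.98 (SE 0.08).

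Of 9 cathepsin inhibitors 4 were tested, and 3 were higher and 1 lower under either scaling. Among all tested genes 38.3% were higher under TMM and 18.0% under library totals. Without the low-count filter 6 inhibitors were called higher, but those that the filter had left out did not exceed 0.731 CPM in any library. Cystatin B (Cstb), the cytosolic inhibitor of cathepsins B and L, rose by 1.99 on the log2 scale (SE 0.06; 0.85 with the length trend removed). The secreted inhibitor cystatin C (Cst3) rose by 1.19 (SE 0.07; 0.51 with the length trend removed) and the serpin Serpinb6a by 1.39 (SE 0.08). Cystatin F (Cst7), an inhibitor that reaches the lysosome and acts on cathepsins C and L, fell by 1.33 (SE 0.08; -2.17 with the length trend removed). The count ratio of Cst7 to Ctsl went from 0.268 to 0.0282. Over the named genes of these last 4 lists, the edgeR adjusted p did not exceed 4.4e-08, that of Vps29.

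**Figure D5:**
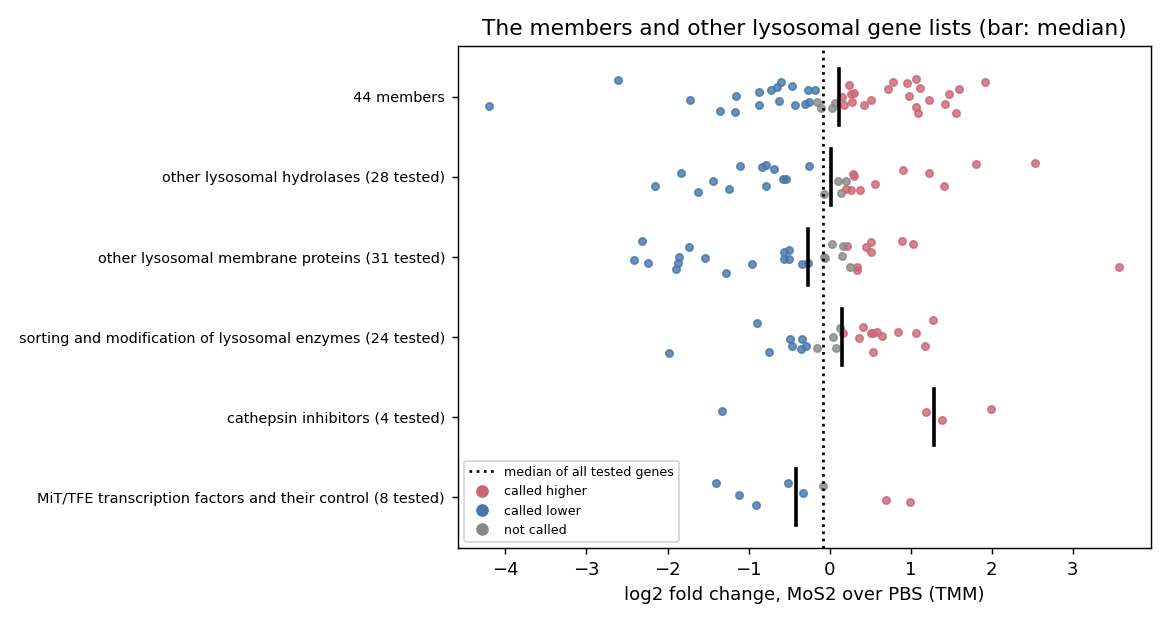
TMM log2 fold change of every tested gene in the 44 lysosomal genes and in 5 related lists (points, coloured by edgeR call), with each list's median (bar) and the median of all tested genes at -0.08 (dotted line). The list medians run from -0.42 for the MiT/TFE factors and their control to 1.29 for the 4 cathepsin inhibitors, and all 6 sets hold genes called in both directions.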

How the data were processed

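The deposited values are raw read counts of each gene in 6 libraries, and per the submitters' processing notes the authors used fastp 0.20.0, HISAT2 2.1.0 and featureCounts 1.6.1. Per the labels' protocols the libraries were NEBNext Ultra libraries sequenced as paired ends. Not given in the sources used here are the strand setting and the handling of multi-mapping reads. The notes name a human build, GRCh38, but the identifiers are mouse, and 54349 of 55401 match GENCODE M21 (GRCm38) in version and coordinates; coordinates are on GRCm38. Columns were matched to samples by their letter and replicate number.

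From the counts, edgeR 4.0.16 (limma 3.58.1, R 4.3.3) gave TMM factors, CPM and the quasi-likelihood F test on all 6 libraries, with treatment as the only term, a prior count of 0.125 and Benjamini-Hochberg adjustment over the 12972 genes left by its filter (about 10 counts in 3 libraries). The SE is the size of the log2 fold change over the square root of F and is approximate. The 95% intervals apply a normal quantile to that SE and are narrower than the F test implies. The test was tried on simulated counts in which only a small part of the genes was changed. That trial does not bear on the scaling, since most genes differed here. Promoter windows were taken from RefSeq.

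The 44 genes, the 5 role classes, the 5 lists of other lysosomal genes (other hydrolases, other membrane proteins, sorting and modification, cathepsin inhibitors, MiT/TFE factors and their control) and the cell type markers were chosen with earlier results of these data known. Values in every library are given for the 6 largest rises, the 6 largest falls, the 6 highest RPKM, called members of small classes with a log2 fold change of 1 or more, and members not called; of each other list up to 4 genes with the smallest adjusted p and all Mitf family factors are named, apart from 1 gene that is not reported here. Some further members' library values were added after they were seen. Same-numbered replicates of the groups did not deviate together (r = -0.0203, -0.0107 and -0.138), and the main test did not pair them. With so few libraries this check cannot exclude that they were prepared together. Alternatives were RLE and upper-quartile factors, library totals, no low-count filter, a minimum of 1 CPM in 3 libraries, limma-voom, DESeq2 1.42.0, a replicate block, a fold of 1.2, an adjusted p under 0.01, removal of a length trend and leaving out each library; removal of length and GC trends was chosen after seeing the data.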

Additional observations from a re-analysis of the deposited data

How the results depend on the processing

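The balance of directions changed with the scaling: with library totals 11 of the 44 genes were called higher and 30 lower, and of all tested genes 2334 were higher and 8786 lower. Under library totals the log2 fold changes of Ctss (-0.51), Tpp1 (-0.53), Hexa (-0.35), Glb1 (-0.47), Gusb (-0.63), Manba (-0.74), Gaa (-0.26), Fuca1 (-0.59), Ppt1 (-0.49), Gm2a (-0.70), Lamp2 (-0.05) and Fnip1 (-0.07) turned sign. Ctss turned with the length trend removed (-0.37) and with length and GC trends removed (-0.32), as did Tfe3 in the latter (0.30). The cause was not tested. The members' share of counts differed by -1.02 percentage points between MoS2 and PBS, by -0.858 with the 10 most abundant genes, Ctsb among them, left out and by -1.16 without Ctsb.

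Leaving out each library in turn gave 20 to 22 members higher, 16 to 18 lower and a share difference from -1.05 to -0.968. With the replicate block 21 were higher and 17 lower; Gusb and Lamp1 lost their call, and no other member's call changed. RLE factors and DESeq2 each gave 22 higher and 17 lower, upper-quartile factors 18 and 20, no filter 20 and 20, and a fold of 1.2 16 and 14. In the related lists, other hydrolases called higher went from 11 to 7 with upper-quartile factors and to 6 at a fold of 1.2, sorting genes called lower from 8 to 5 at a fold of 1.2, and cathepsin inhibitors called higher from 3 to 6 without the filter. The inhibitors that the filter had left out did not exceed 0.731 CPM in any library. The MiT/TFE list's 2 higher genes became 1 in each setting that lost Tfec. Of the 44 genes 25 kept their call and direction in all 18 alternatives tried, and 30 in all but library totals. With 3 libraries a group, no exact test of a share or ratio can fall below p = 0.1, and differences as small as those of Gusb, Fuca1, Smpd1 and Lamp1 are at the limit of what these libraries resolve.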

Other observations

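Heparan sulfate, a sulfated glycan of cell surfaces and matrix, is taken apart in the lysosome by enzymes that act in turn, each on the end left by the one before. The 7 of them named here were grouped after their values were seen, so the group has no test and its count is a description. They comprise 5 of the 44 genes and 2 others, and 6 of the 7 were called lower by edgeR, against 42.4% of all tested genes, with a median log2 fold change of -1.24. Beside Sgsh (-4.20), Ids (-2.61), Naglu (-1.72) and Idua (-1.15) stood the glucosamine 3-sulfatase Arsg, at 25.5, 26.8 and 27.4 CPM with PBS and 10.3, 11.9 and 11.6 CPM with MoS2 (log2 fold change -1.24, SE 0.10; edgeR adjusted p = 6.4e-08). Hgsnat, the membrane acetyltransferase of the same route, stood at 41.3, 39.2 and 37.9 against 24.4, 31.3 and 28.2 CPM (log2 fold change -0.50, SE 0.10; edgeR adjusted p = 0.00027). In both the groups did not overlap. Gusb, which removes glucuronic acid, was the exception at 0.15 under TMM. Under library totals all 7 were lower, against 67.7% of all tested genes. The downward shift of that scaling (median -0.77) nearly fixed this in advance, so it adds no support.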
